A study of Mus musculus with 4 samples.

Results

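The rim of the heart section was compared with its interior in Visium spatial transcriptomes. An edge spot was defined by position alone, as a spot under tissue with fewer than 6 neighbours under tissue on the hexagonal array, and an interior spot as one 3 or more steps from any edge spot. Of 10744 spots under tissue, 1684 (15.7%) were edge spots and 6253 (58.2%) were interior spots. Counts were summed per section over the 1636 edge spots and 6176 interior spots that held at least 5000 UMIs (unique molecular identifiers, 1 per captured molecule). A spot covers a small region that can hold several cells, so a sum reflects both how many cells of a type lay there and how much RNA each carried, and these cannot be told apart.

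The sections came from formalin-fixed, paraffin-embedded hearts of wild type FVB/NJ mice, 1 section per library. All mice had been immunized with a MyHCα peptide, from the cardiac alpha myosin heavy chain, and given immune checkpoint inhibitors (ICIs) against PD-1 and CTLA-4. The ICI-alone group, in which the labels record myocarditis, has 2 sections, and the other 2 sections are from mice that were also given an IL-17A neutralizing antibody. Each group has 1 section from batch 1 and 1 from batch 2, and the batch number serves as the replicate number. The labels give no age, and they do not state whether each section is from a different mouse. The p-values therefore refer to section-to-section spread, which may be partly technical. No unimmunized or untreated heart was analysed here. Values for single sections are given in the order ICI-alone replicates 1 and 2, then antibody replicates 1 and 2.

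As background, the outer face of the heart is covered by the epicardium, a single layer of mesothelial cells that rests on a thin bed of fibroblasts, vessels, lymphatics and fat. Mesothelial cells carry surface glycoproteins such as mesothelin and mucin 16 and have keratins in their cytoskeleton. The chambers are lined by the endocardium, an endothelium, and the wall between these linings is mostly cardiomyocytes, which burn fatty acids. In myocarditis, leukocytes enter the wall and interferon gamma from T cells induces antigen presentation and guanylate-binding proteins in many cell types.

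**Figure D1:**
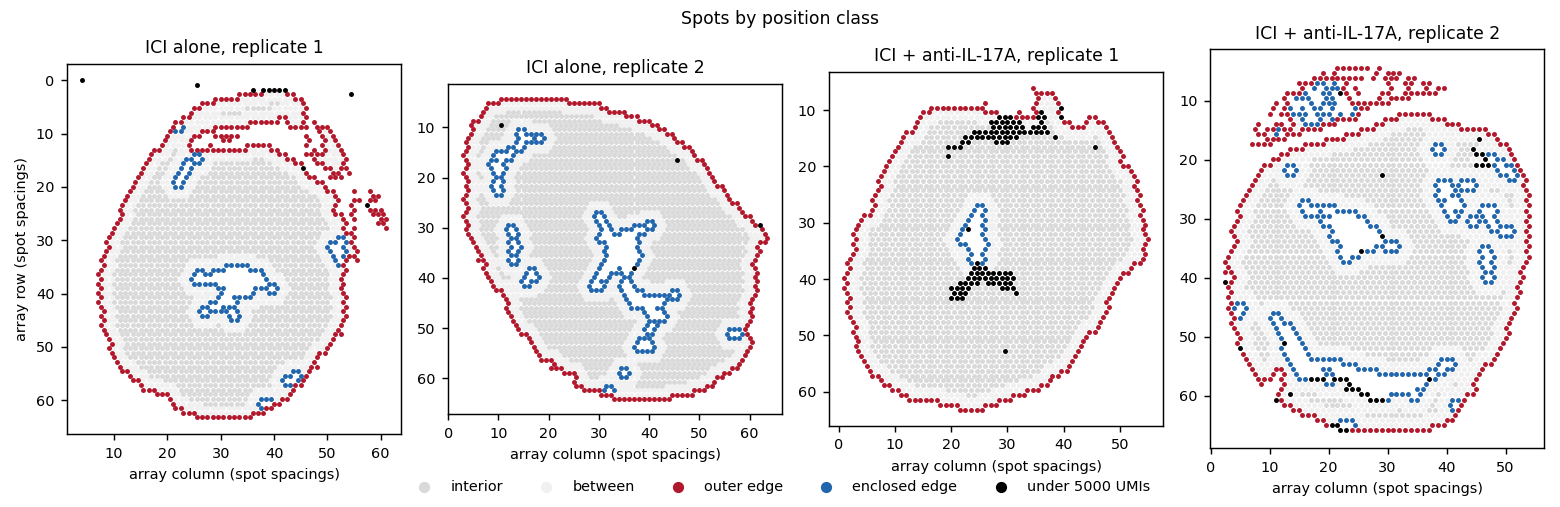
Spots under tissue in each section, drawn on the array with axes in spot spacings. Red marks the outer edge, blue the edge of gaps enclosed by tissue, dark grey the interior, light grey spots 1 or 2 steps from an edge, and black spots under 5000 UMIs; antibody replicate 1 has 1 enclosed gap and antibody replicate 2 has 27.

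The edge differed in extent between sections. It took 423 spots in each ICI-alone section, 229 in antibody replicate 1 and 609 in antibody replicate 2. Median UMIs per edge spot used were 23353.5, 15871, 16350 and 12159, against 29548, 23094, 18384.5 and 12457 per interior spot, so the edge was shallower in every section. Outer edge spots, which border background that reaches the array border, numbered 314, 215, 200 and 311, and enclosed edge spots, which line gaps inside the tissue such as chambers, vessels or tears, numbered 109, 208, 29 and 298. One section stood apart: 155 of the 581 edge spots used in antibody replicate 2 (26.7%) had over 1% of their UMIs on the atrial genes Myl7, Myl4, Sln and Bmp10, against 0 edge spots in the other sections. With the atrial peptide gene Nppa added to these genes, the edge counts were 7, 46, 0 and 157 and the interior counts 49, 385, 1 and 6. Summed over the 13 atrial genes, the edge held 3273, 4722, 1173 and 35280 CPM and the interior 4195, 7059, 1347 and 1795 CPM. Some of the results that this tissue touches are given with and without these spots, and the others with them alone.

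The edge of all sections was marked by transcripts of the mesothelial covering. Msln, which encodes mesothelin, lay at 4.19, 18.8, 50.2 and 26.4 CPM (library-scaled UMI counts, TMM) at the edge and at 0.186, 0.235, 0.398 and 0.434 CPM in the interior. Every edge value was above every interior value. The log2 fold change of edge over interior was 6.15 ± 0.32 (SE, 4 sections, adjusted p = 0.000917). The Upk1b gene, for a tetraspanin of epithelial and mesothelial membranes, lay at 5.65, 17.0, 49.2 and 19.8 CPM at the edge and at 0.232, 0.400, 0.612 and 0.434 CPM in the interior, with a log2 fold change of 5.59 ± 0.26 (adjusted p = 0.000912). ICI-alone replicate 1 had the lowest edge level of both genes and antibody replicate 1 the highest. In mm10, Msln lies on chromosome 17 (25748613 to 25754378) and Upk1b on chromosome 16 (38773182 to 38800203).

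Across all genes, 69 of 13306 (0.519%) differed, 65 higher at the edge (0.489%) and 4 lower (0.0301%), by edgeR's quasi-likelihood test with the section as a block. Of the 22 mesothelial and epicardial genes in the matrices, 19 passed the filter on low counts and 8 of these were higher at the edge, with a median log2 fold change of 2.59 over the 19 against -0.00 over all genes. These 8 were Msln, Upk1b, Lrrn4 (4.68), the mucin gene Muc16 (3.98), the neuronal and mesothelial membrane protein gene Gpm6a (3.80), the zinc and manganese transporter gene Slc39a8 (2.59), Ildr2 (2.16) and the secreted guidance cue gene Sema3d (1.44). The keratin genes did not pass: Krt19, Krt7 and Krt8 had log2 fold changes of 3.31, 3.17 and 2.77 with adjusted p = 0.0654, 0.0648 and 0.0829, although each was higher at the edge in 4 of 4 sections, as were 13.9% of all genes tested. Factors of the embryonic epicardium did not pass either, with log2 fold changes of 0.49 for Wt1, -0.28 for Tbx18 and 0.14 for Aldh1a2, the retinoic acid synthase (adjusted p = 0.457, 0.506 and 0.727). Aldh1a2 was at 389, 418, 154 and 162 CPM at the edge and at 387, 498, 83.0 and 169 CPM in the interior, so only antibody replicate 1 showed a clear excess at the edge.

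Most of this signal lay within the outermost spots. Msln fell from 4.20, 20.1, 50.3 and 27.3 CPM in edge spots to 0.748, 1.23, 6.66 and 1.01 CPM at 1 step inwards and to 0.235, 0.227, 0.936 and 0.579 CPM at 2 steps (scaled by library size alone). Gpm6a fell from 7.43, 12.6, 29.5 and 26.7 CPM to 2.35, 3.48, 5.59 and 4.06 CPM over the first step. By contrast, Mgp, which encodes matrix Gla protein, an inhibitor of calcification, declined over many steps in all sections, from 751, 1097.5, 630.04 and 959.8 CPM at the edge to 574, 620, 440 and 593 CPM at 1 step and 279, 260, 334 and 370 CPM at 8 steps.

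Msln and Upk1b were found on the outer contour far more often than at the rims of enclosed gaps. At least 1 UMI of Msln or Upk1b was found in 14.5%, 36.4%, 47.7% and 34.5% of outer edge spots, against 0.917%, 0.966%, 0 of 27 (which allows up to 11.1%) and 2.17% of enclosed edge spots. Interior spots gave 1.25%, 1.53%, 1.62% and 1.08% with median UMIs per spot of 29548, 23094, 18384.5 and 12457 against 23318, 13874, 15209 and 11761 at enclosed rims. The enclosed rims of ICI-alone replicates 1 and 2 held 1 of 109 and 2 of 207 spots with a UMI of either gene. Their 95% Wilson intervals, 0.162 to 5.01% and 0.265 to 3.45%, contained the interior shares, so these rims cannot be set apart from that background. After thinning every spot to 5000 UMIs the outer edge shares were 4.29%, 19.6%, 28.7% and 21.1% and the interior shares 0.138%, 0.398%, 0.485% and 0.538%. The lowest outer edge share was that of ICI-alone replicate 1, with a 95% Wilson interval of 2.52 to 7.20%, and the next lowest had an interval of 14.9 to 25.5%. These intervals cover counting error only.

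When outer and enclosed edge sums were tested against each other, Upk1b and Msln were the genes that passed, 2 of 11668 (0.0171%), both higher on the outer contour. Upk1b had 7.68, 29.0, 55.4 and 38.7 CPM on the outer contour and 0.355, 0.323, 0 and 0.584 CPM around gaps (log2 fold change 5.91 ± 0.35, adjusted p = 0.00254). For Msln the log2 fold change was 5.90 ± 0.34 (adjusted p = 0.00254), and Lrrn4 had 5.09 with adjusted p = 0.0925. Msln and Upk1b were 2 of 14 mesothelial and epicardial genes tested, and the other members did not pass. Gpm6a had 7.01, 16.1, 32.9 and 40.3 CPM on the outer contour and 8.53, 5.81, 2.91 and 11.98 CPM around gaps (1.24, adjusted p = 0.752), so it was lower on the outer contour in ICI-alone replicate 1. Aldh1a2 was lower on the outer contour in every section but antibody replicate 1 (0.15, adjusted p = 0.970). No gene passed without antibody replicate 2, where Upk1b and Msln had adjusted p = 0.0842 and 0.0724. Vwf, which encodes the von Willebrand factor of endothelial cells, had values of 56.0, 36.3, 32.04 and 85.9 CPM on the outer contour and 102, 92.7, 34.9 and 93.8 CPM around gaps. It was thus lower on the outer contour in 4 of 4 sections, without passing the test (log2 fold change -0.69, adjusted p = 0.752). With the spots rich in Myl7, Myl4, Sln and Bmp10 left out, the edgeR values for Vwf were -1.10 and adjusted p = 0.439.

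Of 14 fibroblast genes, 2 were higher at the edge (Fbln1 and Fmod), and of 29 matrix and fibrosis genes, Eln alone was higher. Of all genes 0.489% were higher. The median log2 fold change was 0.51 for the fibroblast list and 0.28 for the matrix and fibrosis list. Ccn5, a matricellular protein gene, lay at 36.1, 70.4, 24.4 and 35.0 CPM at the edge and 15.1, 29.2, 11.6 and 15.3 CPM in the interior, a log2 fold change of 1.21 ± 0.07 (adjusted p = 0.00191) with nearly the same excess in each section. Eln, the gene of elastin, lay at 137, 195, 65.9 and 122 CPM against 47.1, 45.4, 36.4 and 31.5 CPM (log2 fold change 1.63, adjusted p = 0.0270). Every edge value of Eln was above every interior value, with the smallest difference in antibody replicate 1. Mgp (1.01, adjusted p = 0.0241), the elastic fibre protein gene Fbln1 (0.87, adjusted p = 0.0241) and the adhesion gene Svep1 (0.80, adjusted p = 0.0241) were higher by smaller amounts. Larger log2 fold changes were those of Col6a5, a collagen VI chain gene (2.93), Fmod, a collagen-binding proteoglycan gene (2.46), Spon2 (2.22), Adamtsl1 (2.18) and the transcription factor gene Osr1 (1.94). The type I collagen gene Col1a1 did not pass (log2 fold change 0.65, adjusted p = 0.308), and neither did Dcn, the gene of the proteoglycan decorin (0.21, adjusted p = 0.379). Col1a1 went in different directions by section, with 3250, 6946, 949 and 568 CPM at the edge and 2512, 8218, 304 and 312 CPM in the interior.

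**Figure D2:**
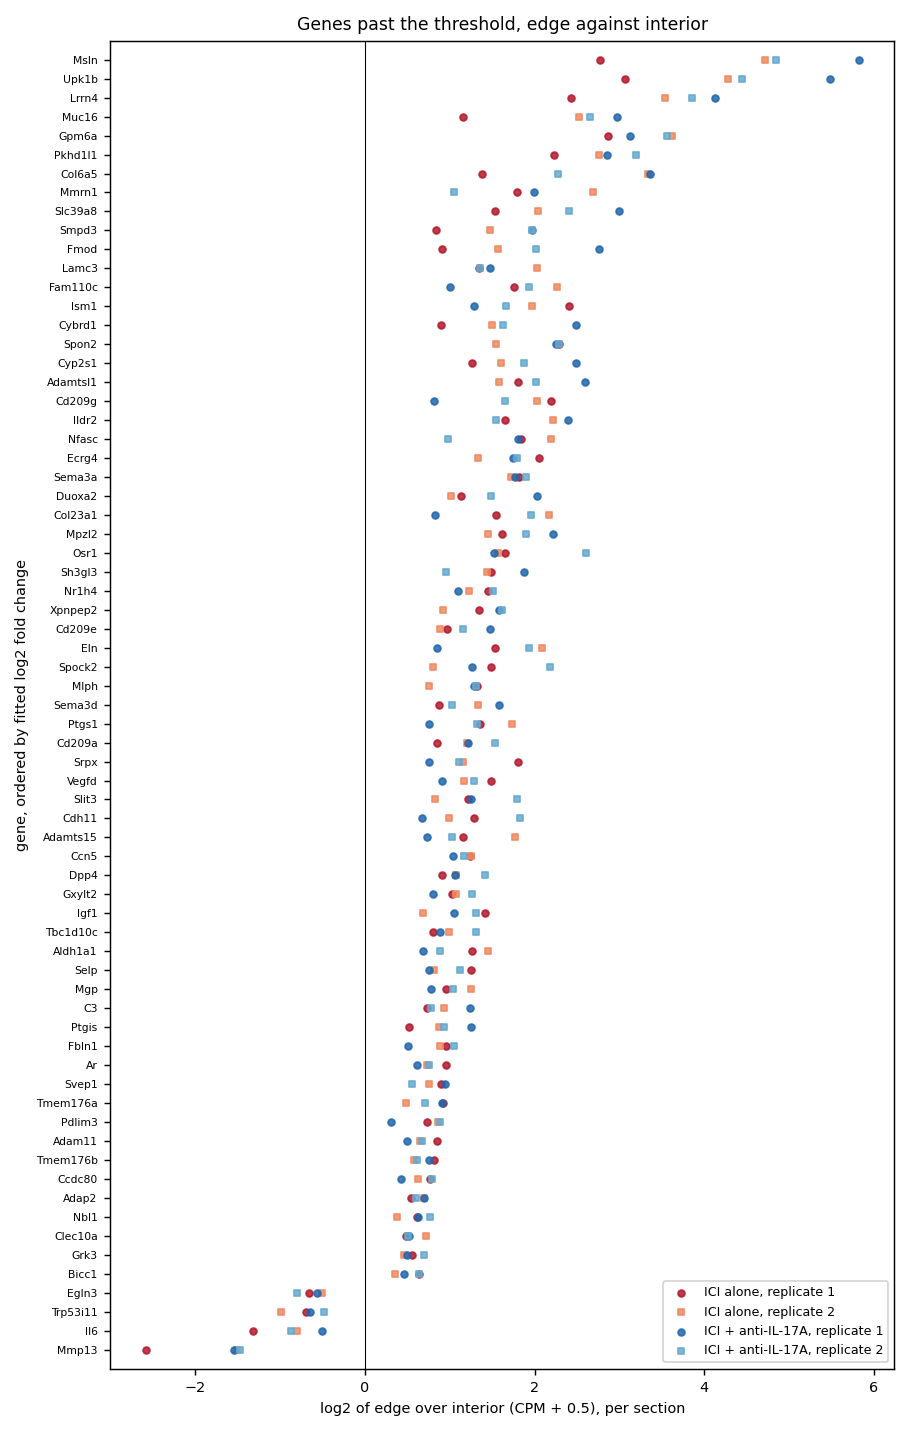
Log2 of edge over interior (CPM + 0.5) for each gene past the threshold, 1 point per section (circles and squares are replicates 1 and 2). Msln and Upk1b stand at the top, with 2.77 to 5.82 and 3.07 to 5.48, and the 4 lower genes at the bottom, with Mmp13 from -2.58 to -1.47.

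Of the vessel lists, 1 of 7 lymphatic endothelium genes, 1 of 19 endocardial genes and 0 of 15 capillary endothelium genes were higher at the edge. Of all genes 0.489% were higher, so these counts do not set the vessel types apart. The list medians were 0.77, 0.69 and -0.15 in that order. Single genes outside these lists also passed. Sema3a, a secreted repellent of axons, was higher by 2.01 ± 0.14 on the log2 scale (adjusted p = 0.00353), with 7.79, 8.74, 9.83 and 8.66 CPM at the edge and 1.86, 2.30, 2.54 and 1.95 CPM in the interior. Slit3, another guidance ligand gene, was higher by 1.26, Igf1, the gene of insulin-like growth factor 1, by 1.12, and Vegfd, a lymphatic growth factor gene, by 1.29. The lymphatic gene that passed was Mmrn1 (2.60, adjusted p = 0.0347), at 3.80, 5.01, 7.44 and 1.73 CPM at the edge, whereas the lymphatic receptor gene Lyve1 did not (0.97, adjusted p = 0.193). Selp, the gene of P-selectin, which captures leukocytes on venules and platelets, was higher by 1.03 (adjusted p = 0.0241). Vwf did not pass (1.96, adjusted p = 0.0740): it lay at 68.4, 58.0, 31.6 and 86.2 CPM at the edge and 10.8, 10.6, 23.8 and 20.9 CPM in the interior, with little excess in antibody replicate 1. The endocardial natriuretic peptide receptor gene Npr3 did not pass (1.39, adjusted p = 0.105). In antibody replicate 2 its edge level of 106 CPM, against 28.1 to 31.9 CPM in the other sections, was measured with the atrial-rich spots, and the fitted log2 fold change over all sections was 0.86 without them. The endocardial gene that passed was Cdh11 (1.24, adjusted p = 0.0482).

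Of 13 dendritic cell genes 1 was higher at the edge (Cd209a), and of 25 complement and coagulation genes 1 was higher (C3). Of all genes 0.489% were higher. The list medians were 0.28 and 0.42. C3, the central complement component, lay at 1385, 2005, 1556 and 1476 CPM at the edge and 833, 1050.3, 657 and 857 CPM in the interior (log2 fold change 0.92, adjusted p = 0.0391). The C-type lectin gene Clec10a was higher by 0.57 (adjusted p = 0.0304) and Cd209a by 1.33 (adjusted p = 0.0347). Cd209e and Cd209g passed as well, but the Cd209 genes are close paralogs and the division of reads among them is uncertain. The T cell gene Cd3e (0.62, adjusted p = 0.141), the macrophage gene Cd68 (-0.02, adjusted p = 0.953) and the neutrophil alarmin gene S100a9 (-0.24, adjusted p = 0.708) did not pass. Of the 17 T cell, 19 macrophage and 20 leukocyte panel genes tested, 0 passed with all sections together, against 0.519% of all genes.

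Lists for tissue that could lie beside the heart held 0 genes past the threshold: skeletal muscle (6 tested), thymus and lymph node (7 tested) and lung epithelium (2 tested). Of all genes 0.519% passed. Nerve and Schwann cell genes had a median of 0.73 over 9 tested and medians of 0.47 to 0.59 in the sections, with 0 past the threshold.

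The 4 genes lower at the edge were Mmp13, Il6, Trp53i11 and Egln3. Mmp13, the gene of a collagenase, lay at 4.48, 8.22, 7.97 and 4.26 CPM at the edge and 29.2, 24.3, 24.1 and 12.7 CPM in the interior (log2 fold change -1.89 ± 0.21, adjusted p = 0.0241). All its edge values were below all its interior values. Il6, the gene of the cytokine interleukin 6, lay at 24.7, 58.6, 14.6 and 6.93 CPM at the edge and 62.3, 102, 21.0 and 13.1 CPM in the interior (-0.93 ± 0.13, adjusted p = 0.0438). Its level differed more between sections than between edge and interior. Egln3, an oxygen-sensing prolyl hydroxylase gene, was lower by 0.63 on the log2 scale (adjusted p = 0.0347), and the value for Trp53i11 was -0.71 (adjusted p = 0.0373). Mmp13 and Il6 were the 2 of 22 tested genes of the IL-17 response list that passed, and 0.0301% of all genes were lower. The list did not move as a whole: its medians were -0.45, -0.32, 0.36 and -0.22, above 0 in antibody replicate 1. Lower at the edge in 4 of 4 sections were 3 of the 22, as were 12.8% of all genes. Scaled by library size alone, Il6 went from 24.8, 62.9, 14.6 and 7.16 CPM in edge spots to 72.3, 106, 22.4 and 11.5 CPM at 8 steps. Mmp13 went from 4.49, 8.83, 7.98 and 4.41 to 27.5, 46.3, 24.7 and 17.3 CPM. The change was not steady in antibody replicate 2, where Il6 reached 18.0 CPM at 4 steps and 3.12 CPM at 6 steps, and Mmp13 was at 5.13 CPM at 7 steps, before the last ring of 81 spots.

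The calls at the edge were not stable across alternatives. All 69 genes kept their direction in every alternative in which they were tested, but the alternatives reuse the sections in which the genes were picked. Of the 69, 7 passed the threshold in every alternative in which they were tested: Msln, Upk1b, Lrrn4, Muc16, Gpm6a, Pkhd1l1 and Sema3a. The count of genes past the threshold was 35 without ICI-alone replicate 1, 13 without ICI-alone replicate 2, 237 without antibody replicate 1 and 11 without antibody replicate 2, and it was 54 with the spots rich in Myl7, Myl4, Sln and Bmp10 left out.

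Whether the edge differed from the interior in the same way under both treatments was asked with an interaction term. By edgeR, 0 of 14536 genes passed (0.0%), with a smallest adjusted p of 0.0676. At an unadjusted p below 0.05 there were 2850 genes, and DESeq2 called 216. With the batch as a replicate block on the edge difference, 355 genes passed. Leaving out 1 section moved this count in some fits and not in others, and each such fit leaves 1 section in a group. With every section kept, 441 passed after thinning to 5000 UMIs and 1405 with the interior set at 5 or more steps. On outer edge spots alone 0 passed, with 1149 at an unadjusted p below 0.05. The count also stayed at 0 with the interior at 2 or more steps, a UMI minimum of 10000 or a filter at 10 CPM. With all sections kept and spots over 1% atrial UMIs left out, 1821 of 14330 passed (12.7%), 907 in the direction of a higher edge excess with the antibody (6.33%) and 914 in the other (6.38%). Those spots include 385 Nppa-rich interior spots of ICI-alone replicate 2 (21.9% of its interior spots used). There 0 interior spots had over 1% on the other 4 atrial genes. With the 4 atrial genes other than Nppa, a choice made after the data were seen, 1646 of 14400 passed (11.4%), 815 in the first direction (5.66%) and 831 in the second (5.77%). The cause of these moves was not tested beyond what each omission leaves out.

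Of 24 interferon gamma response genes, 0 passed the interaction test with all spots (edgeR). The median log2 edge over interior of the 24 genes was -0.73, -0.65, 0.23 and -0.27. It was below 0 in each section but antibody replicate 1. For all 24 the difference in both antibody sections was above that in both ICI-alone sections, as for 26.5% of all genes tested. With the spots rich in Myl7, Myl4, Sln and Bmp10 left out 22 of the 24 passed, all with a higher edge excess with the antibody, as did 5.66% of all genes. With spots over 1% atrial UMIs, Nppa included, left out it was again 22 of the 24, as for 6.33% of all genes. Gbp2, a guanylate-binding protein gene, lay at 500.5, 601, 939.6 and 784 CPM at the edge and at 1125, 1144.5, 671 and 957 CPM in the interior (interaction 1.15 ± 0.25, adjusted p = 0.0885, and 0.00567 without those spots). In the ICI-alone sections the edge was thus lower than the interior, and in antibody replicate 1 it was higher. Gbp4, another gene of that family, had an interaction of 0.68 (adjusted p = 0.0778).

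T cell genes went the same way from another level. The median of the 17 genes was 0.28, 0.04, 0.88 and 0.71, above 0 in each section. With spots over 1% atrial UMIs left out, 7 of the 17 passed with a higher edge excess with the antibody, as did 6.33% of all genes. Without Nppa among the atrial genes it was also 7 of the 17, as for 5.66% of all genes. Cd3e had 21.7, 17.1, 35.5 and 29.3 CPM at the edge and 17.3, 15.1, 17.6 and 15.1 CPM in the interior (interaction 0.73 ± 0.15, adjusted p = 0.0847). The interior values overlapped between groups, and both antibody edge values were above both ICI-alone edge values. The T cell receptor constant gene Trbc2 had an interaction of 0.88 (adjusted p = 0.0676) and the leukocyte integrin gene Itgal 1.10 (adjusted p = 0.0676).

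Neutrophil genes had medians of -0.47, -0.47, 1.06 and 0.19, and 5 of 12 were lower at the edge in both ICI-alone sections and higher in both antibody sections, as were 8.38% of all genes.

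Cardiomyocyte energy genes went the other way. The median of 24 fatty acid oxidation genes was 0.08, 0.31, -0.41 and -0.49, and for 23 of the 24 both antibody sections lay below both ICI-alone sections, as for 25.2% of all genes tested. For 15 of the 24 the edge was higher than the interior in both ICI-alone sections and lower in both antibody sections, as for 9.5% of all genes. Acsl1, which activates fatty acids, lay at 246, 136, 313 and 254 CPM at the edge and 194, 106, 393 and 330.5 CPM in the interior (interaction -0.71 ± 0.11, adjusted p = 0.0701). Its edge was higher than the interior in both ICI-alone sections and lower in both antibody sections. The fatty acid binding protein gene Fabp3 (-0.94, adjusted p = 0.0773) and the carnitine transferase gene Cpt1b (-0.64, adjusted p = 0.0859) followed that order. All 23 oxidative phosphorylation genes had both antibody sections below both ICI-alone sections, with medians of 0.00, 0.10, -0.33 and -0.39. Of 18 sarcomere genes 15 did so, with medians of 0.13, 0.13, -0.38 and -0.24. The alpha myosin gene Myh6 lay at 10356, 5603, 18064 and 16782 CPM at the edge and 8654, 3453, 24872 and 19853 CPM in the interior (interaction -0.83 ± 0.19, adjusted p = 0.0935). With spots over 1% atrial UMIs left out, 20 of 24 fatty acid oxidation, 14 of 23 oxidative phosphorylation and 11 of 18 sarcomere genes passed in this direction. In that setting 6.38% of all genes did so. Without Nppa among the atrial genes the 3 counts were 20, 16 and 10, and 5.77% of all genes passed in this direction. Among all genes, the smallest adjusted p was shared by Slc25a34, a mitochondrial carrier gene (-1.22), the receptor gene Gpr22 (-1.62), the pacemaker channel gene Hcn2 (-1.15) and the channel subunit gene Kcnip2 (-1.07), among others, all named after their values were seen.

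**Figure D3:**
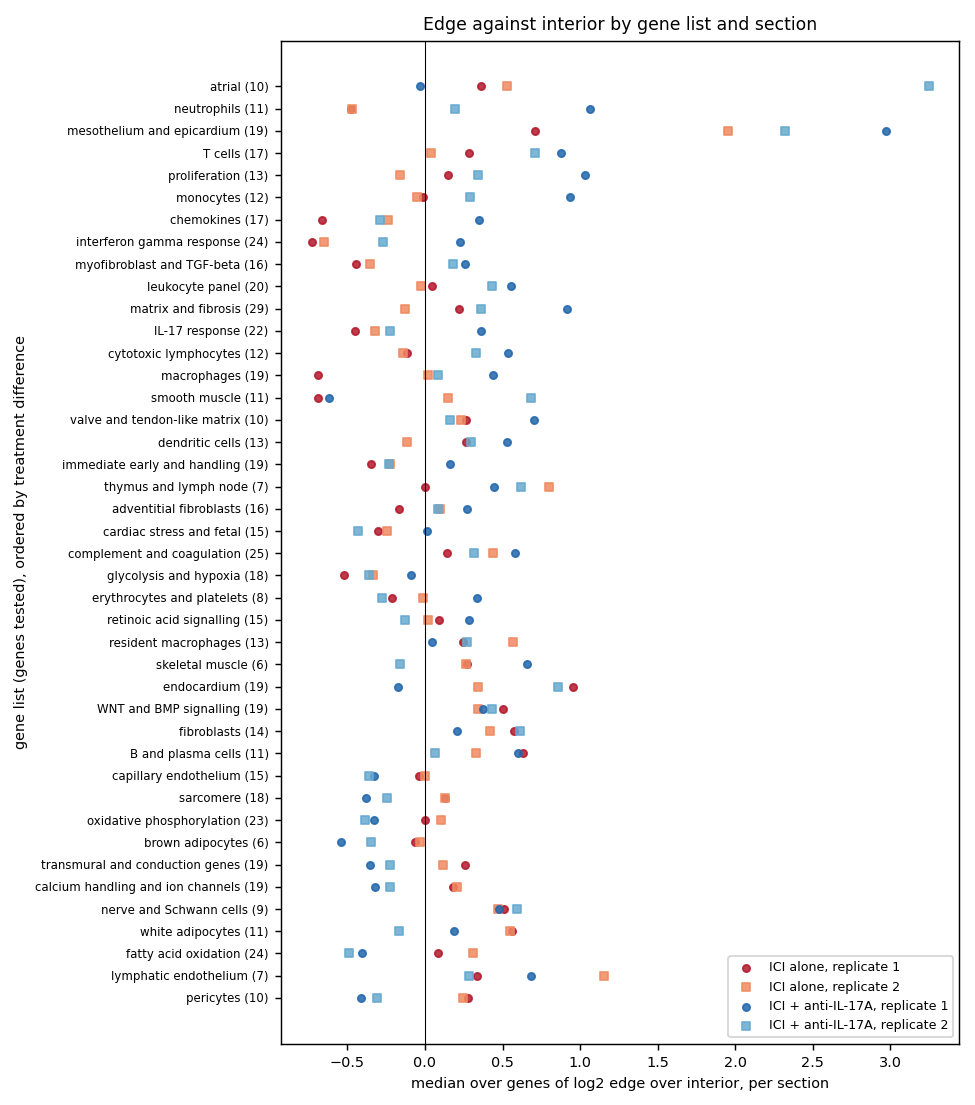
Median over the genes of a list of log2 edge over interior, 1 point per section, with the number of genes tested in brackets. Red and orange are ICI-alone replicates 1 and 2, dark and light blue antibody replicates 1 and 2; fatty acid oxidation lies right of 0 in both ICI-alone sections and left of 0 in both antibody sections.

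Leukocyte density differed in the same sense. Leukocyte-rich spots, those with at least 24 UMIs of a 20-gene leukocyte panel after thinning to 5000 UMIs, made up 8.74%, 17.8%, 13.5% and 5.85% of edge spots and 12.9%, 20.1%, 4.36% and 2.60% of interior spots. The share was lower at the edge by 4.20 and 2.24 percentage points in the ICI-alone sections (differences of -4.20 and -2.24) and higher by 9.15 and 3.25 points in the antibody sections. This order did not hold for each kind of edge. Outer edge spots gave 7.26%, 26.6%, 15.4% and 4.28%, and enclosed edge spots 12.8%, 8.70%, 0 of 27 (which allows up to 11.1%) and 7.58%. In ICI-alone replicate 2 the outer edge share was thus above the interior share. With these spots left out of the sums, 9 genes passed the interaction test, the interferon gamma list had a median interaction of 0.60 against 0.62 with them, and the T cell list 0.46 against 0.73. For fatty acid oxidation the median was -0.48 without these spots against -0.62 with them, for oxidative phosphorylation -0.30 against -0.42, for sarcomere genes -0.29 against -0.40 and for neutrophil genes 0.77 against 0.97. None of the genes of these 6 lists passed by edgeR with or without leukocyte-rich spots.

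**Figure D4:**
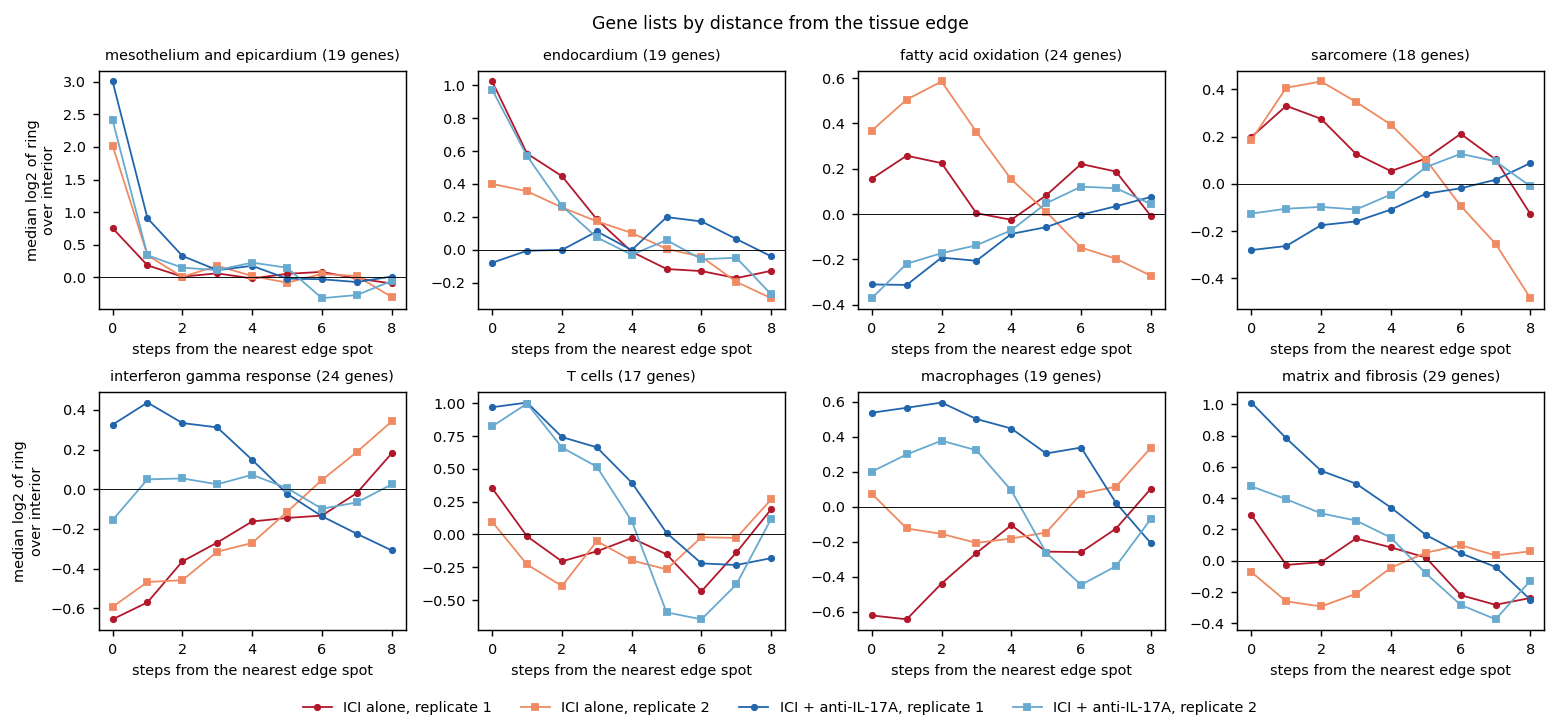
Median log2 of each ring over the interior for 8 gene lists (scaled by library size alone), by steps from the nearest edge spot, 1 line per section. The mesothelial list falls from 0.75 to 3.01 at step 0 to between 0.18 and 0.91 at step 1, whereas the interferon gamma list goes from -0.66 and -0.59 at step 0 to 0.18 and 0.34 at step 8 in the ICI-alone sections.

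The ring profiles show how far these differences reached. Ring values were scaled by library size alone, so those of edge spots differ from the TMM-scaled medians above. In both ICI-alone sections the interferon gamma list increased inwards over 8 steps, from -0.66 to 0.18 and from -0.59 to 0.34 (median log2 of ring over interior). In antibody replicate 1 it went from 0.33 at the edge to -0.31 at 8 steps, and in antibody replicate 2 it stayed between -0.16 and 0.07. The T cell list in the antibody sections was as high at 1 step (1.00 and 1.00) as in edge spots (0.97 and 0.82), and it was near the interior level at 5 steps in antibody replicate 1 (0.01) and below it in antibody replicate 2 (-0.59). This band was broader than the Msln layer. With ICIs alone the T cell list was at 0.35 and 0.10 in edge spots and at -0.01 and -0.23 at 1 step.

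Between treatments at the edge itself, 6 of 12929 genes differed (0.0464%), 1 higher with the antibody (0.00773%) and 5 lower (0.0387%). Of 22 IL-17 response genes tested, 3 fell (Cxcl5, Lcn2 and Mmp3), and of 29 matrix and fibrosis genes, 2 fell (Cthrc1 and Mmp3). Cthrc1, a secreted protein gene of activated fibroblasts, fell from 58.1 and 100.2 CPM to 6.85 and 4.73 CPM (log2 fold change -3.82 ± 0.34, adjusted p = 0.0188). Mmp3, the gene of stromelysin, fell from 98.6 and 128 CPM to 13.4 and 7.52 CPM (-3.49 ± 0.29, adjusted p = 0.0188). Lcn2, which encodes an iron-sequestering acute phase protein, fell by 2.89 on the log2 scale (adjusted p = 0.0383) and the neutrophil chemokine gene Cxcl5 by 2.07 (adjusted p = 0.0353). Ifit3, an interferon-induced gene, rose from 12.6 and 10.2 CPM to 56.7 and 70.4 CPM (2.48 ± 0.20, adjusted p = 0.0188). In none of the 6 did the groups overlap, but the test picked them on these same values, so this adds no support.

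With the batch as a replicate block, 17 genes passed (2 higher, 15 lower), among them all 6. On the outer contour alone 0 genes passed by edgeR (972 before adjustment at 0.05). Leaving out sections gave 1221 genes without ICI-alone replicate 1, 135 without ICI-alone replicate 2, 49 without antibody replicate 1 and 8 without antibody replicate 2. In both fits without an antibody section, Lcn2 and Cxcl5 did not pass and the other genes of the 6 did. The interior showed the same order: Cthrc1 was at 43.9, 148, 2.21 and 1.86 CPM there and Ifit3 at 24.7, 13.8, 42.8 and 84.3 CPM. Whether the difference was larger at the edge for these genes is the interaction above, which none passed with all spots.

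The other genes named at the edge did not pass the test between treatments. The log2 fold change was 1.77 for Msln (adjusted p = 0.246), 1.62 for Upk1b (adjusted p = 0.248) and 2.86 for Krt19 (adjusted p = 0.115), the last with 1.502 and 6.16 against 34.8 and 19.9 CPM. Other mesothelial and epicardial genes differed in direction: Aldh1a2 was at 400.03 and 426 against 159 and 169 CPM (-1.33, adjusted p = 0.0955), and Wt1 at 5.91 and 12.6 against 18.1 and 5.85 CPM (0.31, adjusted p = 0.827). The groups did not overlap for Krt19, Msln or Upk1b, and the share of all genes without overlap at the edge is not given here. The interaction for Krt19 was 2.54 (adjusted p = 0.0773). For 15 of 22 mesothelial and epicardial genes the edge difference in both antibody sections was above that in both ICI-alone sections. This held for 26.5% of all genes tested. The median interaction of the 22 genes was 0.80, and 0 of them passed. S100a8 (-2.88, adjusted p = 0.0861), Dio3, which inactivates thyroid hormone (-4.13, adjusted p = 0.0738), Col1a1 (-2.73, adjusted p = 0.115) and Il6 (-1.99, adjusted p = 0.167) had lower values with the antibody. Higher values were those of Ccl17, a T cell chemokine gene (3.36, adjusted p = 0.169), Ifng, the gene of interferon gamma (1.29, adjusted p = 0.149), and Cd3e (0.78, adjusted p = 0.183). Ccl17 was at 4.30 and 9.31 against 122 and 19.1 CPM, with by far the highest value in antibody replicate 1. Cxcl9, a chemokine gene induced by interferon gamma, was at 6.21 and 5.11 against 18.4 and 22.3 CPM (1.84, adjusted p = 0.0738). Nppa, at 2299, 3586, 284 and 23008 CPM, differed by 1.99 on the log2 scale (adjusted p = 0.531) with the atrial-rich spots and -2.41 (adjusted p = 0.0885) without them.

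**Figure D5:**
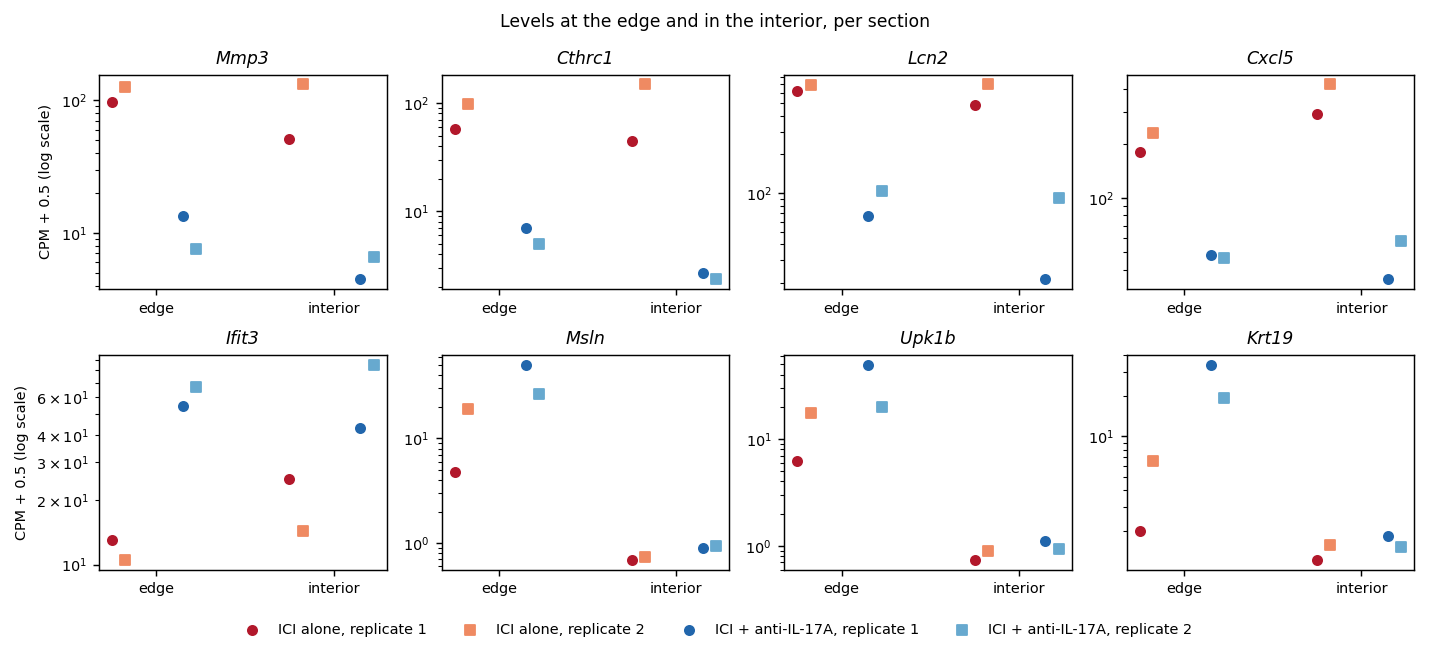
CPM + 0.5 on a log scale for 5 of the genes that differed between treatments at the edge and for Msln, Upk1b and Krt19, at the edge and in the interior, 1 point per section. Cthrc1, Mmp3, Lcn2 and Cxcl5 lie lower in both antibody sections in both positions, and Msln is above 4 CPM at the edge of every section and below 0.5 CPM in every interior.

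The authors' deposited table scores each gene's spatial clustering in a section as Moran's I, which nears 1 for like values in neighbouring spots. In that table Msln had 0.0768, 0.0959, 0.183 and 0.129 and Mgp 0.619, 0.574, 0.370 and 0.346. Mmp13 had 0.601, 0.426, 0.595 and 0.185, the lowest in antibody replicate 2. Msln scored below Mgp in every section.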

How the data were processed

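The authors deposited, for 4 Visium sections, a matrix of unnormalized UMI counts over genes and tissue-covered spots, with spot positions. Per the file headers these were made with Space Ranger 2.1.0, and the submitters' processing notes name mm10 and Seurat 5.1.0. The sources used here do not name the probe set. The deposited Moran's I score and its adjusted p-value come from the authors' table. Sections held 73167202, 66255242, 47882576 and 33005923 UMIs and 19465 genes. Pairs of sections shared 2040 to 2239 spot barcodes, each at the same array position in both, as barcodes are fixed by the array.

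Spots were classed by position. Counts were summed per section and class over spots with at least 5000 UMIs, filtered with filterByExpr, scaled by TMM and tested with edgeR 4.0.16 (quasi-likelihood F test, Benjamini-Hochberg at 0.05, R 4.3.3), with the section as a block except between treatments within the edge. The common biological coefficient of variation was 12.4% for edge against interior, 9.04% for the interaction and 19.0% between treatments. Log2 ratios per section used 0.5 CPM added. Shares carry 95% Wilson intervals, and 3 counts set the limit for a share of 0. The labels' batch number pairs the sections across groups, and the correlation of deviations of same-batch edge sums was -0.08 over 13070 genes, which are not independent. Alternatives covered DESeq2 1.42.0, scaling, filters, UMI minimum, thinning, interior distance, atrial-rich, leukocyte-rich or array border spots, and each section left out. Gene positions were matched by symbol to a RefSeq table of GRCm38.p6, which is mm10.

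The spot classes, a panel of 38 genes, 44 gene lists and the tests were chosen with earlier results of these data known. Named genes were the panel, in each test up to 10 called genes with the greatest increase and up to 10 with the greatest decrease, at 10 CPM or more with the same direction in every section or both batches, and up to 4 members per list with the smallest p. Other named genes were chosen after their values were seen: Muc16, Slc39a8, Sema3d, Krt7, Krt8, Tbx18, Sema3a, Mgp, Svep1, Osr1, Ccn5, Slit3, Vegfd, Selp, Cd209e, Cd209g and Clec10a at the edge, Upk1b between treatments, and, for the interaction, the members of the interferon, T cell and metabolic lists and the genes with the smallest p. Values of 1 gene counted between treatments are not reported here.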

Additional observations from a re-analysis of the deposited data

Results flagged for a closer look

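For 10 gene lists the median difference between edge and interior had one sign in both ICI-alone sections and the other in both antibody sections, and the difference of the list medians was not tested. The antibody mean minus the ICI-alone mean of that median log2 difference was 1.10 for neutrophil genes, 0.64 for monocyte genes, 0.62 for myofibroblast and TGF-beta genes and 0.56 for cytotoxic lymphocyte genes, all lower at the edge with ICIs alone and higher with the antibody. It was -0.64 for fatty acid oxidation, -0.62 for pericytes, -0.48 for transmural and conduction genes, -0.47 for calcium handling and ion channels, -0.44 for sarcomere and -0.41 for oxidative phosphorylation genes, all in the opposite sense. For oxidative phosphorylation the median in ICI-alone replicate 1 was 0.00. The neutrophil list rested in part on low counts: Camp and Ltf had interactions of 3.98 and 3.25 (adjusted p = 0.0756 and 0.0701 by edgeR), with Camp at 0.593, 1.67, 2.63 and 0.393 CPM at the edge.

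The share of leukocyte-rich spots, edge minus interior, was below 0 in both ICI-alone sections and above 0 in both antibody sections. The antibody mean exceeded the ICI-alone mean by 9.42 percentage points, and this difference was not tested. Outer edge spots alone did not keep this order, as in ICI-alone replicate 2 their share was 26.6% against 20.1% of interior spots.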

How the results depend on the processing

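The 69 genes called at the edge became 421 (305 higher, 116 lower) with DESeq2, 209 with library size alone, 107 with no filter on low counts, 26 with a filter at 10 CPM, 42 without spots over 1% atrial UMIs, 180 without leukocyte-rich spots, 143 with the interior at 2 or more steps, 11 at 5 or more steps and 38 with no replicate block for the section. Leaving out 1 section gave 11 to 237.

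The interaction, with 0 genes, became 216 with DESeq2, 193 with no filter and 441 with spots thinned to 5000 UMIs. Without spots over 1% atrial UMIs it became 1821 with Nppa among the atrial genes and 1646 with Nppa not among them. The count was 9 without leukocyte-rich spots, 1405 with the interior at 5 or more steps and 355 with the replicate block. It stayed at 0 on outer edge spots alone, with the interior at 2 or more steps, with a UMI minimum of 10000 and with a filter at 10 CPM. Leaving out 1 section gave 0 to 1071.

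Between treatments at the edge, 6 genes became 307 with DESeq2, 30 with no filter and 69 with thinning. Without spots over 1% atrial UMIs they became 10 with Nppa among the atrial genes and 40 with Nppa not among them. The count was 153 without leukocyte-rich spots, 0 on the outer contour alone and 17 with the replicate block. Leaving out 1 section gave 8 to 1221; the section left alone in its group is then taken to vary like the other group.

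For outer against enclosed edge, 2 genes became 14 with DESeq2, 33 with no filter, 16 with gaps of 7 or more positions and 0 with no replicate block. Leaving out 1 section gave 0 to 3.

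The cause of these moves was not tested, beyond the spots or sections that each setting leaves out. No gene named reversed direction while past the threshold, in 1369, 795, 379 and 130 values under alternatives. The median interaction of the interferon gamma list ranged from 0.38 to 0.85, of fatty acid oxidation from -0.81 to -0.47 and of the T cell list from 0.46 to 1.07. Counts limit the precision for Msln in ICI-alone replicate 1, where 25 outer edge spots had a UMI of it.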
